A study of Drosophila melanogaster with 12 samples.

Results

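Wildtype samples 4-6 were set against wildtype samples 1-3 in a study of neural progenitors of the Drosophila melanogaster embryo, so 6 of the study's 12 arrays were members, placed in their sets by their labels. Each array compared RNA of 50 to 100 neuroblasts and ganglion mother cells of the stage 11 ventral nerve cord with a common reference of about 30 whole w1118 embryos of stages 10 to 12. Cells were in Cy5 on wildtype samples 4-6 and in Cy3 on wildtype samples 1-3. Within wildtype the dye and the sample set therefore cannot be told apart. The same exchange in prospero mutants was mutant samples 4-6 (cells in Cy5) against mutant samples 1-3 (cells in Cy3). It is given beside the markers and many, but not all, of the other results. The animals called wildtype carried pros17 over the TM3-KrGFP balancer, so they were heterozygous and had a balancer with a GFP transgene. The mutants were pros17/pros17. Embryos of both groups were kept at 25 degrees C, the pros17 allele was present in every sample, and each sample was a pool of cells. Whether a set's 3 samples came from separate embryos or days is not labelled, so p-values cover only the spread among the samples, which may partly be technical.

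A neuroblast is a neural stem cell that divides unequally, renewing itself and budding off a ganglion mother cell, which divides once more into neurons or glia. Proneural proteins and Notch signalling pick the neuroblast out of the neuroectoderm, and Notch with the protein Numb later sets the daughters apart. Prospero, a homeodomain protein handed to the ganglion mother cell at division, represses progenitor and cell cycle genes there and promotes the genes of neurons. Neurons are known by synaptic, transmitter and ion transport genes, which dividing progenitors use little. The design text names no comparison between sample sets, and what follows asks how alike the control sets were in these 2 classes of gene.

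Values are log2 ratios of cells over reference as deposited. That direction is likely but not stated in the labels: ratios of arrays with opposite dyes correlated positively, so they had been turned, and prospero was lower in the mutants. Differences are set means from the fit, samples 4-6 minus samples 1-3, so a positive one means a higher level in samples 4-6. Wildtype samples 4-6 stood apart from the other 3 sets. Their arrays correlated with wildtype samples 1-3 at a median r of 0.608 over probes (0.515 to 0.743 over 9 pairs), with mutant samples 4-6 at 0.621 and with mutant samples 1-3 at 0.636. Mutant samples 4-6 correlated with mutant samples 1-3 at 0.797, and wildtype samples 1-3 with mutant samples 4-6 at 0.731 and with mutant samples 1-3 at 0.798. Within wildtype samples 4-6 the median r was 0.748, against 0.829 within wildtype samples 1-3 and 0.834 and 0.857 within mutant samples 4-6 and 1-3. Arrays gave 8421 to 10030 ratios each, and their number limits the precision. In a pool of cells, fewer cells of a type and less RNA per cell cannot be told apart.

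The marker genes separated the wildtype sets in opposite directions. Brd, the founder of the Bearded family of small proteins that act on Notch signalling, had log2 ratios of -1.95, -3.80 and -3.24 in wildtype samples 4-6 and of 4.07, 3.83 and 2.67 in wildtype samples 1-3. In mutants it had 1.93, 3.17 and 0.48 in samples 4-6 and 1.93, 2.65 and 1.62 in samples 1-3. The wildtype sets did not overlap, the mutant sets did, and wildtype samples 4-6 alone had Brd below the whole-embryo reference. The wildtype difference was -6.52 (SE 0.69), a 91.5-fold lower level (adjusted p = 0.0023), against -0.21 in mutants (adjusted p = 0.92). The difference between these differences was -6.31 (SE 0.98, adjusted p = 0.04).

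E(spl)m4-BFM, another Bearded family gene and a target of Notch, had log2 ratios of -1.25, -2.42 and -0.98 in wildtype samples 4-6 and of 4.67, 4.24 and 2.89 in wildtype samples 1-3. Its mutant ratios were 2.88, 3.17 and 2.67 in samples 4-6 and 3.26, 4.33 and 2.03 in samples 1-3. It was above the reference on all 9 arrays outside wildtype samples 4-6. It fell by 5.48 on the log2 scale in wildtype (SE 0.62, adjusted p = 0.0024), and the mutant difference was -0.30 (adjusted p = 0.87).

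The neuronal markers nrv3, ChAT and brp went the other way. Neuron genes as a class were split, with 37 of 64 tested members above 0 and 27 below, as given further on. For nrv3, a beta subunit of the sodium pump found in neurons, wildtype samples 4-6 had log2 ratios of -0.40, 0.32 and -0.54 and wildtype samples 1-3 had -4.28, -4.01 and -4.17. The mutant ratios were -4.77, -4.55 and -5.79 in samples 4-6 and -5.12, -5.47 and -4.68 in samples 1-3. Wildtype samples 4-6 were thus near the level of whole embryos, and the other 9 arrays were far below it. The wildtype difference was 3.95 (SE 0.37, adjusted p = 0.0015), the mutant difference 0.06 (adjusted p = 0.97), and the difference between them 3.89 (adjusted p = 0.024).

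ChAT, which makes acetylcholine, had log2 ratios of 2.35, 3.34 and 4.78 in wildtype samples 4-6 and of 1.17, 1.68 and 1.02 in wildtype samples 1-3. In mutants ChAT had -1.49, -0.24 and -0.68 in samples 4-6 and -0.05, 0.21 and -0.04 in samples 1-3. The wildtype sets did not overlap, and all 6 wildtype ratios of ChAT were above the mutant ones. The wildtype difference was 2.20 (SE 0.54, adjusted p = 0.022) and the mutant one -0.84 (adjusted p = 0.5). ChAT was averaged over 2 probes. The alternative that took the probe with most values could not test ChAT, which leaves 13 alternatives for it. In a wildtype set most ChAT ratios therefore came from the other probe alone. Whether the 2 probes differ was not tested.

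For brp, a scaffold of the presynaptic active zone, wildtype samples 4-6 had log2 ratios of 2.97, 2.20 and 4.77 and wildtype samples 1-3 had 0.86, 0.20 and 0.57. Mutant samples 4 and 5 had -2.28 and -0.89, mutant sample 6 gave no ratio for brp, and mutant samples 1-3 had -0.35, 0.59 and -0.21. The wildtype sets did not overlap. The difference was 2.77 in wildtype (SE 0.63, adjusted p = 0.02) and -1.59 in mutants (adjusted p = 0.33). For ChAT and brp the difference between wildtype and mutant did not pass (3.04, adjusted p = 0.097, and 4.36, adjusted p = 0.079). The calls between the wildtype sets were lost under 4 of 13 alternatives for ChAT and 3 of 14 for brp, and under none of the 14 for Brd, E(spl)m4-BFM and nrv3. The calls of the difference between wildtype and mutant were lost under 9 of 19 alternatives for Brd, 11 of 19 for E(spl)m4-BFM and 5 of 19 for nrv3.

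The wildtype sets also differed in prospero (pros) itself. It had log2 ratios of 1.94, 1.23 and 0.88 in wildtype samples 4-6 and of 3.29, 2.56 and 3.13 in wildtype samples 1-3. In pros17/pros17 mutants pros had -3.67, -2.13 and -3.95 in samples 4-6 and -2.84, -2.77 and -2.54 in samples 1-3. Every wildtype array was above every mutant array for pros. As pros also served to read the direction of the ratios, this is no separate check of the labels. The wildtype difference was -1.65 (SE 0.46, adjusted p = 0.036), a call that 8 of 14 alternatives lost, and the mutant difference was -0.53 (adjusted p = 0.63).

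**Figure D1:**
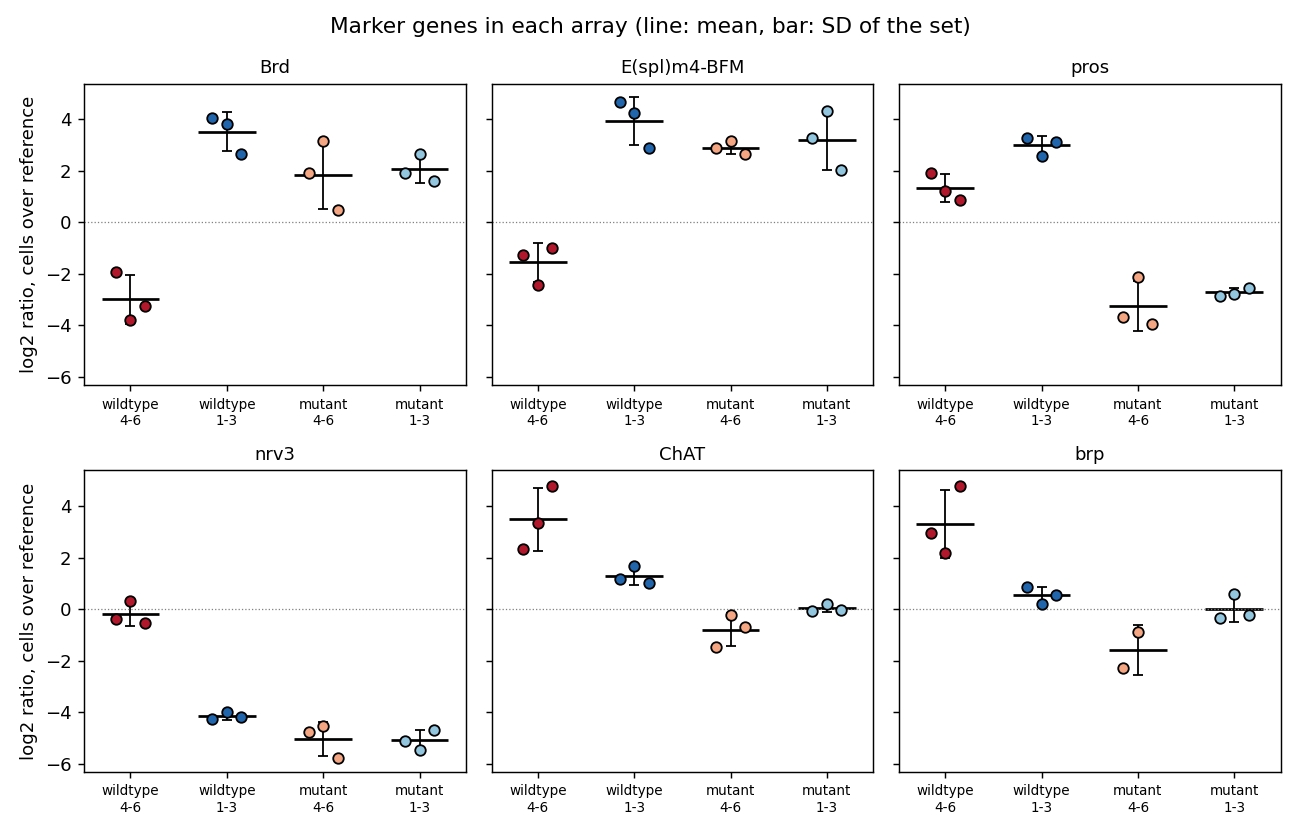
Log2 ratios of cells over reference (vertical axis) of 6 genes in the 4 sets of 3 samples (horizontal axis); points are arrays, lines set means and bars SDs. For Brd, E(spl)m4-BFM and nrv3 wildtype samples 4-6 lie apart from the other 9 arrays, and for pros wildtype lies above mutant in both sets.

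Across the whole table, 7895 rows could be tested between the wildtype sets, 6834 of them named genes. In wildtype samples 4-6, 483 rows were higher (6.12% of those tested) and 895 lower (11.3%) at an adjusted p under 0.05. At least 2-fold differences made up 433 of the higher and 842 of the lower rows. The same exchange in mutants called 1 row higher (0.0119%) and 32 lower (0.381%) of 8399 tested, although 1274 rows had an unadjusted p under 0.05, against 2671 in wildtype. The difference of the differences passed for 23 rows on the higher side (0.301%) and 9 on the lower side (0.118%) of 7633 tested in all 4 sets. Across those rows, the wildtype and mutant differences correlated at r = 0.26, a description over genes, whose points share the arrays and the reference. Of the rows tested in both genotypes, the 481 called higher in wildtype had a median difference of 1.76 in wildtype and 0.23 in mutants, and the 877 called lower had -1.73 in wildtype and -0.45 in mutants.

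The split of the wildtype calls depended on how arrays were centred. The median difference of all rows was -0.24. It was 0.06 once each array was centred on its median and 0.09 after quantile normalization, and calls were then 772 higher and 476 lower (61.9% higher, against 35.1% as deposited) and 893 higher of 1404. The number of calls was 510 without wildtype sample 1, 813 without sample 2, 595 without sample 5 and 736 without sample 6, against 1378 with all. Values of a list are therefore also given relative to the median of all rows.

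**Figure D2:**
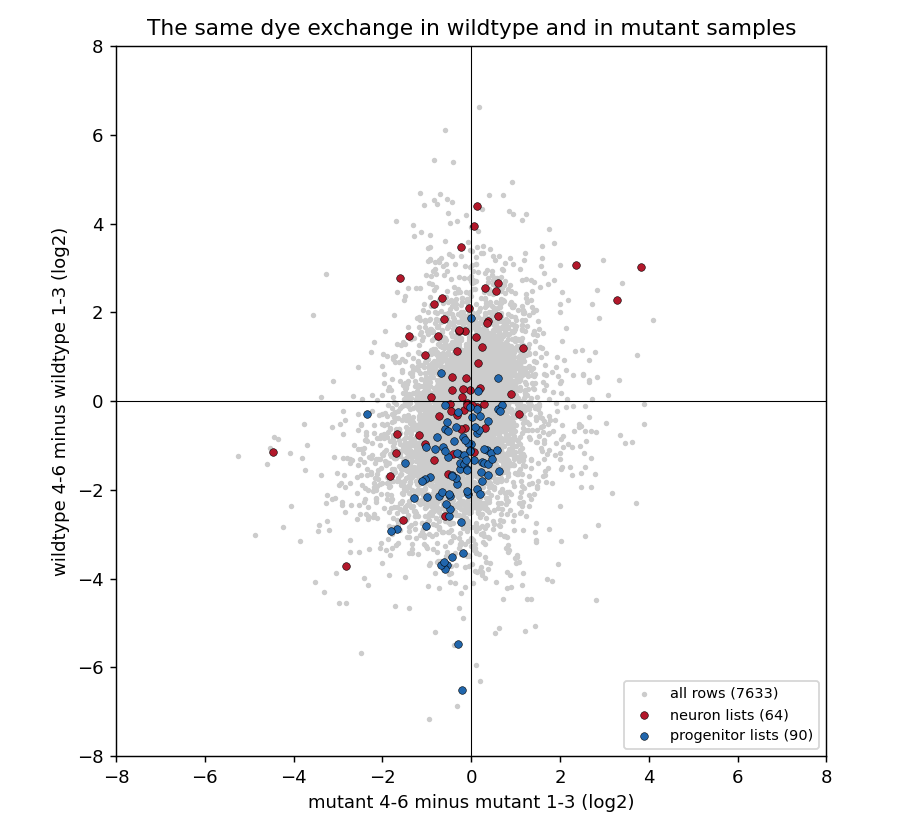
Each point is a gene or probe row, placed by its difference between mutant samples 4-6 and 1-3 (horizontal, log2) and between wildtype samples 4-6 and 1-3 (vertical, log2). Of the 90 rows of the progenitor lists (blue) most lie below 0 on the wildtype axis, and the 64 rows of the neuron lists (red) spread to both sides with a tail above.

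Genes of the progenitor class were lower in wildtype samples 4-6. Of 90 tested members of 6 lists, 51 fell and 1 rose, with a median difference of -1.35, or -1.11 relative to the median of all rows. Over all rows tested in wildtype, 11.3% fell and 6.12% rose. In mutants 0 of 93 passed, where 0.0119% of all rows passed as higher and 0.381% as lower, and the median was -0.24. The difference of differences passed for 5 progenitor genes, all on the lower side. On single arrays the median ratio of the 81 members with all 12 values was 0.49, 0.15 and 0.02 in wildtype samples 4-6 and 1.87, 1.52 and 1.41 in wildtype samples 1-3. It was 1.93, 2.0 and 1.27 in mutant samples 4-6 and 1.96, 1.95 and 1.83 in mutant samples 1-3. The wildtype sets did not overlap, and all mutant arrays were above wildtype samples 4-6. The number of lower calls was 35 with centred arrays and 29 after quantile normalization. It was 25 without wildtype sample 1, 27 without sample 5 and 30 without sample 6, and 21 from a fit of the wildtype arrays alone.

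Among the neuroblast factors, 8 of 12 tested members fell and 0 rose (all rows: 11.3% and 6.12%), with a median of -1.68, or -1.45 relative to all rows. These were the proneural genes l(1)sc and sc, the SoxB genes SoxN and D, dpn, the Snail family gene sna, ase and klu. The proneural gene l(1)sc had log2 ratios of -0.48, -1.35 and -0.76 in wildtype samples 4-6 and of 3.71, 3.03 and 1.57 in wildtype samples 1-3 (difference -3.63, SE 0.66, adjusted p = 0.0077). Mutants had 1.37, 2.14 and 0.07 for l(1)sc in samples 4-6 and 2.13, 2.43 and 0.88 in samples 1-3. Only the wildtype sets were separate for this gene.

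D (Dichaete), a SoxB factor of the early neuroectoderm and neuroblasts, had log2 ratios of 1.0, 0.01 and -0.18 in wildtype samples 4-6 and of 3.26, 2.88 and 3.12 in wildtype samples 1-3 (difference -2.81, adjusted p = 0.0042). Its mutant difference was -1.03 (adjusted p = 0.27). The neuroblast repressor dpn (deadpan) had 2.06, 0.36 and 0.35 in wildtype samples 4-6 and 2.99, 2.89 and 3.19 in wildtype samples 1-3 (difference -2.10, adjusted p = 0.012). It remained above the whole-embryo reference on all 12 arrays, with mutant ratios between 3.49 and 4.56.

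The bHLH gene ase (asense), made in neuroblasts and ganglion mother cells, had log2 ratios of 0.44, 0.70 and 0.17 in wildtype samples 4-6 and of 2.32, 1.74 and 1.94 in wildtype samples 1-3. In mutants the order was the other way: 3.29, 2.95 and 2.83 in samples 4-6 and 2.71, 2.11 and 2.37 in samples 1-3. The wildtype difference of -1.57 (adjusted p = 0.0068) and the mutant one of 0.62 (adjusted p = 0.32) differed by -2.19 (adjusted p = 0.044). Of the members that missed the threshold, grh had a difference of -1.13, wor -0.82, Sox21b -0.25 and esg -0.13. The list kept 4 calls without wildtype sample 1, 5 without sample 5 or 6, 5 after quantile normalization and 3 from the wildtype arrays alone.

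The lowest median was that of the Notch and Bearded genes, at -2.44 (-2.21 relative to all rows). Of 14 tested members, 10 were lower and 1 higher in wildtype samples 4-6 (all rows: 11.3% and 6.12%). Beside Brd and E(spl)m4-BFM, the Bearded family members Tom, Ocho, E(spl)m2-BFM and E(spl)malpha-BFM fell, by 3.70, 3.50, 2.73 and 2.14. The bHLH repressor E(spl)mdelta-HLH, a Notch target, had log2 ratios of -0.07, -0.76 and -1.17 in wildtype samples 4-6 and of 3.44, 2.52 and 3.40 in wildtype samples 1-3 (adjusted p = 0.0015). Its mutant ratios, 2.55, 2.64 and 2.03 in samples 4-6 and 3.34, 2.91 and 2.72 in samples 1-3, were all near the higher wildtype set. The difference of differences was -3.20 for this gene (adjusted p = 0.04).

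Upstream of these targets, the ligand Delta fell by 2.16 (adjusted p = 0.02) and neur, the ubiquitin ligase that activates Delta, by 1.55 (adjusted p = 0.043). The co-repressor gene H (Hairless) had a difference of -0.44. The member that rose was E(spl)m6-BFM, also of the Bearded family, with a mean of 1.91 in wildtype samples 4-6 and 0.05 in wildtype samples 1-3 (difference 1.86, adjusted p = 0.018). Its mutant means were -1.30 in both sets.

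Genes of asymmetric division had 5 of 14 tested members lower and 0 higher (all rows: 11.3% and 6.12%), and a median of -1.2. For numb, the inhibitor of Notch that goes to a single daughter, log2 ratios were -1.79, -2.0 and -1.79 in wildtype samples 4-6 and 1.70, 0.93 and 0.59 in wildtype samples 1-3 (difference -2.94, SE 0.34, adjusted p = 0.0024). Mutants had -0.51, -0.32 and -1.15 for numb in samples 4-6 and 1.28, 1.40 and 0.74 in samples 1-3. Neither pair of sets overlapped for numb, and its mutant difference of -1.80 had an adjusted p of 0.059.

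The adaptor mira (miranda), which carries Prospero to the ganglion mother cell, had log2 ratios of -0.70, -1.78 and -2.35 in wildtype samples 4-6 and of 0.32, -0.42 and 0.46 in wildtype samples 1-3. Its call (-1.73, adjusted p = 0.034) was lost under 8 of 14 alternatives. The apical components insc, baz and Galphai fell by 2.02, 1.54 and 1.11, and 7 of 14 alternatives lost the call of Galphai. The other 9 members, among them pins, pon, stau and brat, ranged from -1.43 to 0.63 and did not pass. The list kept 2 calls under either change of centring, 1 without wildtype sample 1 and 2 without sample 5 or 6.

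Many cell cycle genes were lower in wildtype samples 4-6. For DNA replication and entry into S phase, 12 of 23 tested members fell and 0 rose (all rows: 11.3% and 6.12%). The list's median was -1.19 (-0.96 relative to all rows). Differences ranged from -2.59 to -0.08. The sliding clamp gene PCNA had log2 ratios of 1.30, 0.16 and 0.02 in wildtype samples 4-6 and of 3.15, 3.05 and 2.55 in wildtype samples 1-3 (difference -2.43, adjusted p = 0.004). Mutants had 2.24, 2.61 and 2.29 for PCNA in samples 4-6 and 2.70, 3.16 and 2.70 in samples 1-3. The helicase subunit Mcm3, the GINS subunit Psf1, the flap nuclease Fen1 and CycE fell by 2.59, 2.18, 2.14 and 2.09. In mutants Mcm3, Psf1 and Fen1 had differences of -0.50, -1.30 and -0.72, none past the threshold. The mutant sets of Psf1 did not overlap, and its difference of differences did not pass (-0.88, adjusted p = 0.33). E2f1, which turns on many of these genes, fell by 1.66 (adjusted p = 0.049).

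For G2 phase and mitosis, 16 of 22 tested members fell and 0 rose (all rows: 11.3% and 6.12%). The list's median was -1.35 (-1.11 relative to all rows), with differences from -2.31 to -0.19. The securin gene pim had log2 ratios of -0.49, -0.48 and -1.07 in wildtype samples 4-6 and of 1.71, 1.5 and 1.02 in wildtype samples 1-3 (difference -2.09, adjusted p = 0.0024). Its mutant ratios lay between 1.45 and 1.89 on all 6 arrays. The mutant difference was 0.19 and the difference of differences -2.28 (adjusted p = 0.04).

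CycB, the mitotic cyclin, had log2 ratios of 0.26, 0.50 and -0.38 in wildtype samples 4-6 and of 1.76, 2.11 and 1.31 in wildtype samples 1-3 (difference -1.60, adjusted p = 0.0076). The centromere histone gene cid fell by 2.31, Incenp by 2.04, the anaphase activator fzy by 1.98 and aurB by 1.66. The mitosis list kept 10 calls with centred arrays, 6 after quantile normalization, 6 without wildtype sample 1 or 5 and 7 without sample 6. The replication list kept 8 and 7 under those scalings and between 6 and 10 without a single wildtype sample.

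The temporal factors, which neuroblasts express in sequence, had a median of -0.28, close to that of all rows. None of 5 tested members passed (0 higher, 0 lower, against 6.12% and 11.3% of all rows). In so short a list that count is near the share of all rows. cas, the late factor, had log2 ratios of 0.25, 0.58 and -0.69 in wildtype samples 4-6 and of 1.63, 1.01 and 0.76 in wildtype samples 1-3 (difference -1.09, adjusted p = 0.11). The wildtype sets of cas did not overlap. Kr had 0.74, 0.41 and 1.07 against 0.38, 0.34 and 0.84, and these sets overlapped. hb was not tested here.

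**Figure D3:**
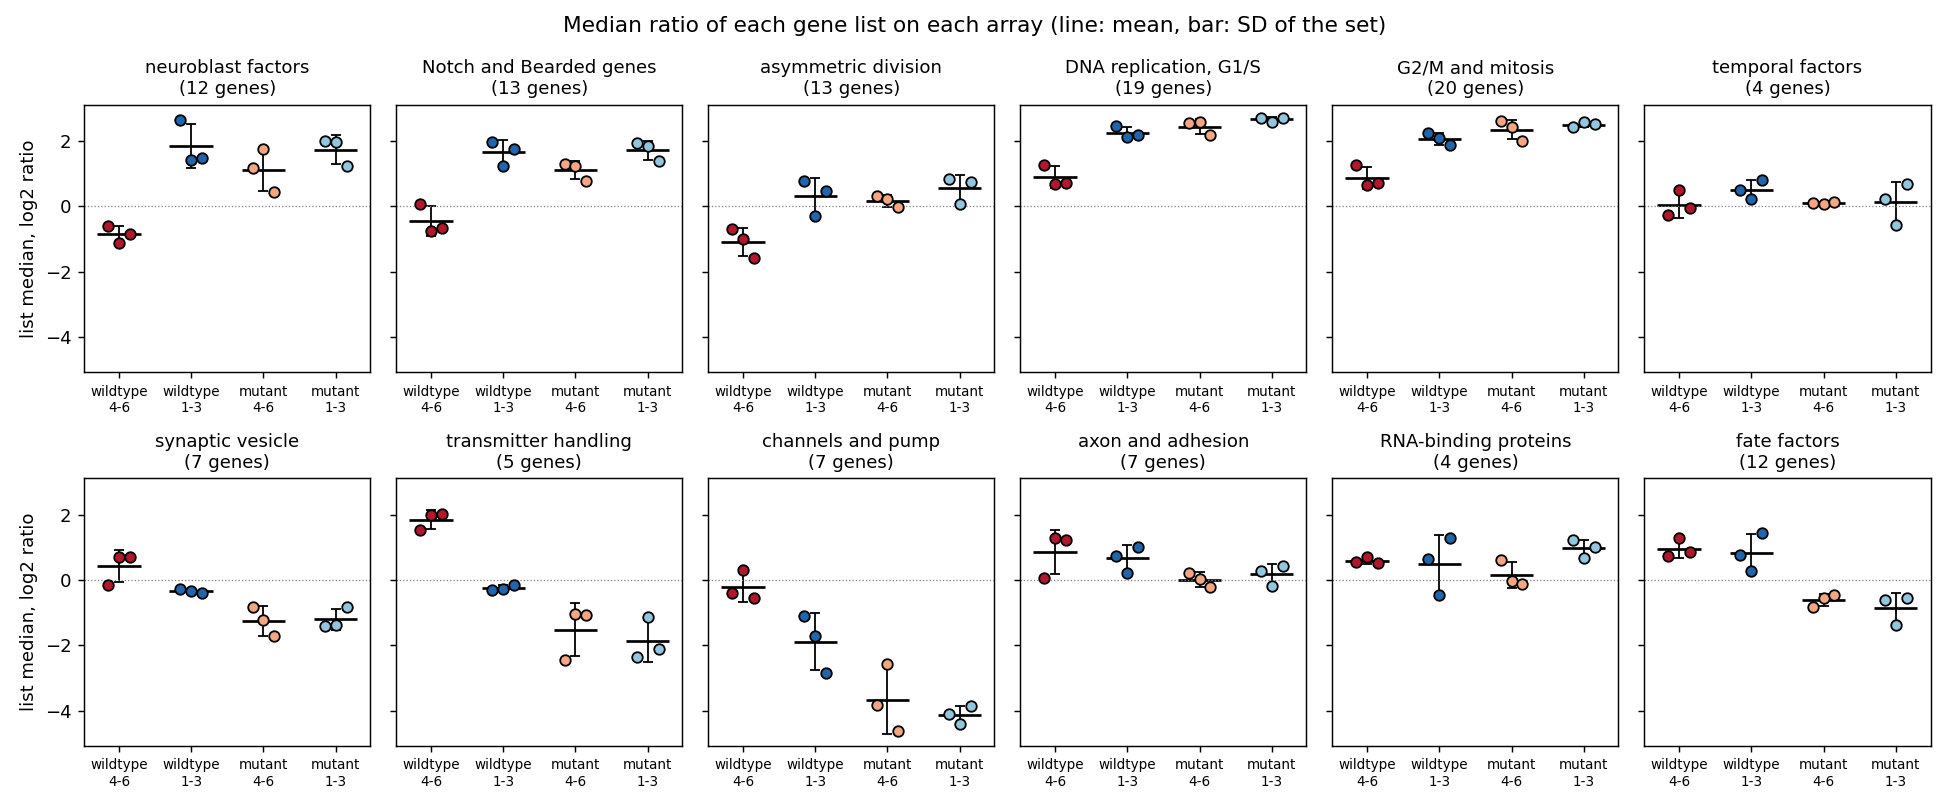
Median log2 ratio (vertical axis) of the members with values on all 12 arrays, for 6 progenitor lists (top row) and 6 neuron lists (bottom row) in the 4 sets; points are arrays, lines set means and bars SDs. The first 5 progenitor lists are lowest in wildtype samples 4-6, and the transmitter and channel lists are highest there.

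Genes of the neuron class were split by function. Of 64 tested members of 6 lists, 15 rose and 3 fell, with a median of 0.26, which is 0.50 above that of all rows. Among all rows tested between the wildtype sets, 6.12% rose and 11.3% fell. In mutants 0 of 70 passed, again where 0.0119% of all rows passed as higher and 0.381% as lower, and the median was -0.22. Of the 94 neuron genes on the array, 64 had enough ratios for the wildtype test. On single arrays the median ratio of the 42 members with all 12 values was 0.43, 1.14 and 1.02 in wildtype samples 4-6, -0.15, -0.34 and 0.46 in wildtype samples 1-3, and at most -0.69 on the mutant arrays. Wildtype samples 4 and 3 overlapped on this scale. The number that rose was 17 with centred arrays, 19 after quantile normalization, between 7 and 8 without wildtype sample 1, 2, 5 or 6, and 9 from the wildtype arrays alone. With zeros and single-channel values kept, 9 of 94 rose and the median was 0.09.

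Transmitter genes had the highest median, 1.83 (2.07 above that of all rows). Of 8 tested members, 5 were higher in wildtype samples 4-6 and 0 lower (all rows: 6.12% and 11.3%). The receptor subunit nAChRbeta1, through which neurons receive acetylcholine, had log2 ratios of 1.53, 2.0 and 2.32 in wildtype samples 4-6 and of -2.47, -4.06 and -0.81 in wildtype samples 1-3 (difference 4.40, SE 0.66, adjusted p = 0.0044). Its mutant ratios lay between -2.58 and -3.53 on all 6 arrays. The difference of differences was 4.26 (adjusted p = 0.074).

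VGAT, the vesicular transporter of GABA, had log2 ratios of 1.10, 2.02 and 1.89 in wildtype samples 4-6 and of -0.86, -0.26 and -0.13 in wildtype samples 1-3 (difference 2.09, adjusted p = 0.0044). The choline transporter gene ChT had 1.32, 1.17 and 1.65 in wildtype samples 4-6 and -0.30, -0.17 and -0.14 in wildtype samples 1-3 (difference 1.58, adjusted p = 0.019). Neither gene's wildtype sets overlapped, and the mutant differences of VGAT and ChT were -0.04 and -0.13. VAChT, the vesicular acetylcholine transporter, rose by 3.06 (adjusted p = 0.045), with a mutant difference of 2.36 in the same direction (adjusted p = 0.25). The monoamine genes ple and Ddc had differences of 0.52 and -0.33 and did not pass. Keeping the values at 0 and from a single channel brought 15 members into the test and the list's median to 0.25, with 5 higher calls. It kept 2 calls without wildtype sample 1 or 6 and 3 without sample 5.

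Of the synaptic vesicle genes 3 of 9 tested members rose, brp, lap and shi, and 0 fell (all rows: 6.12% and 11.3%). The list's median was 1.23. The clathrin adaptor gene lap (AP180) had log2 ratios of -0.83, -0.12 and 0.08 in wildtype samples 4-6 and of -2.23, -3.11 and -2.51 in wildtype samples 1-3 (difference 2.32, adjusted p = 0.0036). Its mutant ratios were -3.50, -3.13 and -3.71 in samples 4-6 and -2.62, -2.98 and -2.80 in samples 1-3. The mutant sets thus stood in the opposite order, and the difference of differences was 2.97 (adjusted p = 0.04).

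The dynamin gene shi rose by 1.23 (adjusted p = 0.045), a call that 8 of 14 alternatives lost. nSyb, the synaptobrevin of neurons, had a difference of 2.48 with an SE of 1.06 and did not pass (adjusted p = 0.13). Syn and Csp had differences of -0.73 and -0.14. The list kept 1 call without wildtype sample 2 and 2 without sample 1, 5 or 6. With zeros and single-channel values kept, 13 members were tested, 1 rose and the median was 0.54.

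Of the channel and pump genes 5 of 13 tested members rose, nrv3, CanB, jus, Ca-alpha1D and sei, and 0 fell (all rows: 6.12% and 11.3%). The list's median was 1.57. CanB, the regulatory subunit of the phosphatase calcineurin, had log2 ratios of 0.35, 0.72 and 1.44 in wildtype samples 4-6 and of -3.81, -1.29 and -2.83 in wildtype samples 1-3 (difference 3.48, adjusted p = 0.0059). Mutant ratios of CanB lay between -3.85 and -5.07. jus had 0.44, 0.47 and 0.26 in wildtype samples 4-6 and -1.08, -1.71 and -4.0 in wildtype samples 1-3 (difference 2.65, adjusted p = 0.018). The potassium channel genes Shaw (-2.68) and Sh (-1.16) did not pass, and the differences of Task7 and Nckx30C, 3.03 and 2.28, stood beside mutant differences of 3.84 and 3.29. The list kept 2 calls without wildtype sample 5 and 3 without sample 1 or 2. With zeros and single-channel values kept, 21 members were tested, 2 rose and the median was 0.73.

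The other neuron lists did not shift as a whole. Axon and adhesion genes had 1 of 11 tested members higher and 2 lower (all rows: 6.12% and 11.3%), with a median of -0.04. Fas1 rose by 1.44 (adjusted p = 0.028), a call lost under 6 of 14 alternatives. The guidance receptor gene robo1 had log2 ratios of -0.04, -0.15 and 0.11 in wildtype samples 4-6 and of 1.53 and 1.79 in wildtype samples 2 and 3 (difference -1.68, adjusted p = 0.016). In mutants robo1 had -0.24, -0.33 and -1.11 in samples 4-6 and 1.74, 0.86 and 1.2 in samples 1-3 (difference -1.83, adjusted p = 0.054). The difference of robo1 was thus of like size in both genotypes, as was that of side, at -3.72 in wildtype (adjusted p = 0.019, 2 values a set) and -2.81 in mutants (adjusted p = 0.16).

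The neuronal RNA-binding proteins had 0 of 5 tested members past the threshold (all rows: 6.12% higher, 11.3% lower) and a median of -0.06. elav, the general marker of differentiated neurons, had means of 2.40 in wildtype samples 4-6 and 2.46 in wildtype samples 1-3, and of 2.34 and 2.81 in mutant samples 4-6 and 1-3. Its wildtype difference was -0.06 (adjusted p = 0.94). fne, its relative, had log2 ratios of 2.18, 2.15 and 2.37 in wildtype samples 4-6 and of -0.43, -0.58 and 2.20 in wildtype samples 1-3 (difference 1.84, adjusted p = 0.059), so wildtype sample 3 lay with samples 4-6 for fne.

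Among neuronal fate factors 1 of 18 tested members rose and 1 fell (all rows: 6.12% and 11.3%), and the median was -0.16. Lim3, a LIM homeodomain factor of motor neurons and interneurons, had log2 ratios of 1.27, 2.35 and 1.69 in wildtype samples 4-6 and of -1.13, -1.77 and 0.54 in wildtype samples 1-3 (difference 2.56, adjusted p = 0.027), and its call was lost under 6 of 14 alternatives. The member that fell was pros. Fer2 had 1.80, 2.49 and 1.92 in wildtype samples 4-6 and -0.60, -0.77 and 2.15 in wildtype samples 1-3, overlapping through wildtype sample 3.

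**Figure D4:**
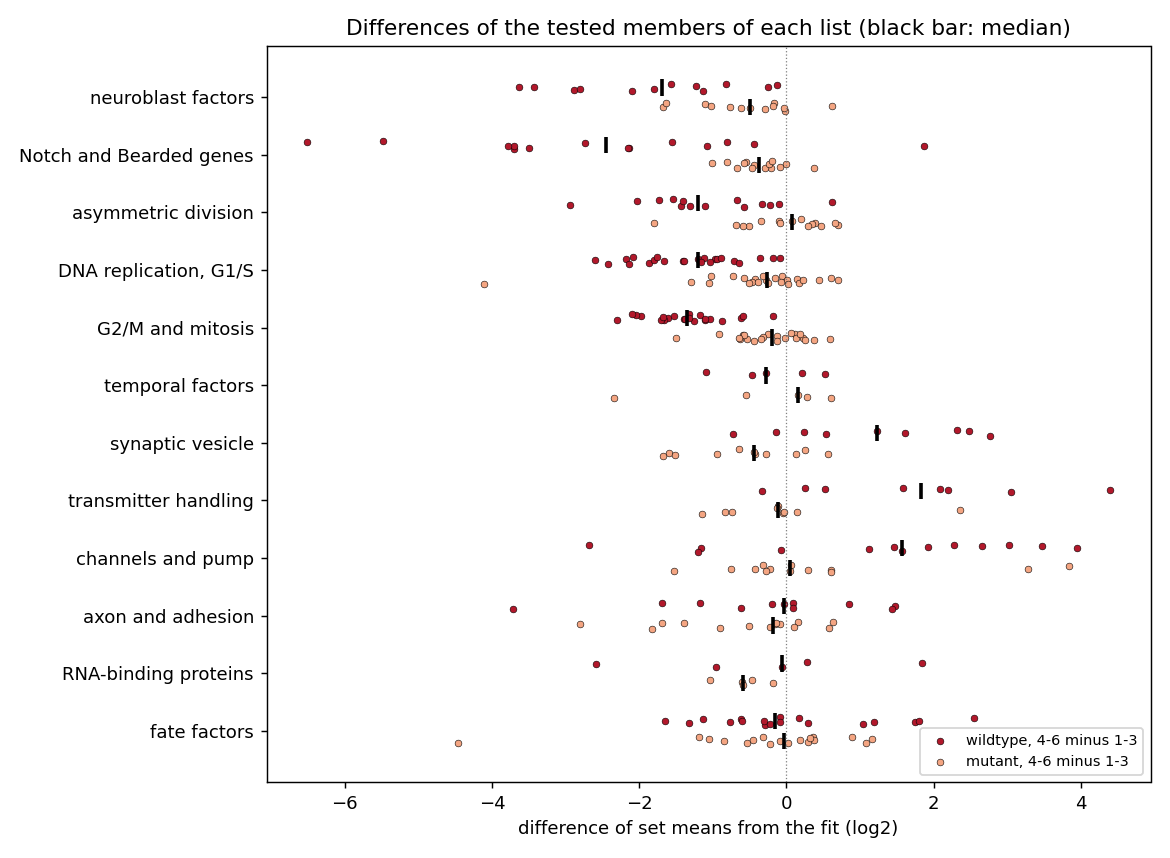
Differences on the log2 scale (horizontal axis) between samples 4-6 and samples 1-3 of each tested member of 12 lists, for wildtype (dark red, upper) and mutants (light, lower); black bars are medians. The Notch and Bearded median lies at -2.44 in wildtype and -0.37 in mutants, and the transmitter median at 1.83 in wildtype and -0.11 in mutants.

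The genes with the largest rise in wildtype samples 4-6 were taken by size among those past the threshold. The first, CG30172, had log2 ratios of 1.63, 1.80 and 2.29 in wildtype samples 4-6 and of -5.30, -5.27 and -3.62 in wildtype samples 1-3, a 99.3-fold higher level (difference 6.63, SE 0.48, adjusted p = 3.2e-04). Its 6 mutant ratios lay between -3.84 and -5.02. CG10508 and the tetraspanin gene Tsp42Ej followed with differences of 6.10 and 5.38. The tetraspanin gene lbm (late bloomer), known from motor axons, had 1.29, 1.21 and 1.5 in wildtype samples 4-6 and -2.82, -3.02 and -1.96 in wildtype samples 1-3 (difference 3.93, adjusted p = 0.0024).

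Nrx-1, the neurexin, had log2 ratios of -0.44, 0.62 and 1.76 in wildtype samples 4-6 and of -2.98, -3.12 and -3.10 in wildtype samples 1-3 (difference 3.71, adjusted p = 0.013). The nuclear receptor gene Hr51 had 1.97, 2.53 and 2.41 in wildtype samples 4-6 and -1.62, -1.41 and -1.94 in wildtype samples 1-3 (difference 3.96, adjusted p = 0.0083). For these genes wildtype samples 1-3 were tight.

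For other genes of this group wildtype sample 3 lay between its own set and samples 4-6. Aplip1, an adaptor of kinesin in axonal transport, had log2 ratios of 2.56, 2.39 and 3.57 in wildtype samples 4-6 and of -3.12, -3.19 and 0.77 in wildtype samples 1-3 (difference 4.69, adjusted p = 0.012). Cdk5alpha, the activator of the neuronal kinase Cdk5, had 1.79, 2.34 and 2.76 in wildtype samples 4-6 and -3.27, -2.69 and 0.30 in wildtype samples 1-3 (difference 4.19, adjusted p = 0.0095). The tubulin-binding stathmin gene stai had 3.52, 2.22 and 2.42 in wildtype samples 4-6 and -1.22, -4.13 and 0.82 in wildtype samples 1-3 (difference 4.23, adjusted p = 0.018).

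Scgbeta, Drl-2, Liprin-gamma and kek1 had ratios of 0.63, 0.03, -0.14 and 2.57 in wildtype sample 3, each above samples 1 and 2 and below samples 4-6. Over the 458 rows called higher with all 12 values, the ratio nearest to samples 4-6 was that of wildtype sample 3 in 305 rows, of sample 2 in 101 and of sample 1 in 52. From the other side, the ratio nearest to samples 1-3 was that of wildtype sample 4 in 267 rows, of sample 5 in 125 and of sample 6 in 66. The median ratio of these rows, which were chosen by their wildtype difference, was 0.66, 0.86 and 1.0 in wildtype samples 4-6 and -1.31, -1.2 and -0.45 in wildtype samples 1-3. Mutant arrays, which entered the choice through the shared spread and the need for all 12 values, ranged from -0.81 to -0.96 in samples 4-6 and from -0.89 to -1.10 in samples 1-3.

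The genes with the largest fall were CG13465, Brd, CG6126 and E(spl)m4-BFM. CG13465 had log2 ratios of 0.11, -1.92 and -4.55 in wildtype samples 4-6 and of 5.25, 4.52 and 4.48 in wildtype samples 1-3 (difference -6.87, SE 0.92, adjusted p = 0.003). Its mutant ratios lay between 2.78 and 4.33. link had 1.25, -0.84 and -1.28 in wildtype samples 4-6 and 4.35, 3.93 and 3.83 in wildtype samples 1-3 (difference -4.33, adjusted p = 0.0036), with mutant ratios between 3.27 and 4.97. For both, the mutants lay with wildtype samples 1-3.

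Other large falls went with spread among the mutants. Inos, which makes inositol phosphate from glucose 6-phosphate, had log2 ratios of -1.52, -0.89 and -1.65 in wildtype samples 4-6 and of 4.18, 3.86 and 3.10 in wildtype samples 1-3 (difference -5.06, adjusted p = 0.021), while its mutant ratios ran from -2.02 to 3.78. CG6126, Cyp6a8, Cyp4e2 and glob1 likewise had mutant ratios that spread over most of the gap between the wildtype sets. RFeSP, the Rieske protein of respiratory complex III, had -2.84, -3.04 and -2.29 in wildtype samples 4-6 and 1.25, 1.03 and 1.76 in wildtype samples 1-3, beside a mutant difference of -3.53 (adjusted p = 0.11).

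Over the 695 rows called lower with all 12 values, the median ratio was -0.44, -0.70 and -0.65 in wildtype samples 4-6 and 1.37, 1.19 and 0.95 in wildtype samples 1-3. Mutant arrays had medians of 0.33 to 0.46 in samples 4-6 and of 0.81 to 0.96 in samples 1-3 for these rows. The mutants lay between the wildtype sets and nearer to samples 1-3. Wildtype sample 3 was the nearest to samples 4-6 in 379 of these rows, sample 2 in 218 and sample 1 in 98. Wildtype sample 4 was the nearest to samples 1-3 in 300, sample 5 in 198 and sample 6 in 197.

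**Figure D5:**
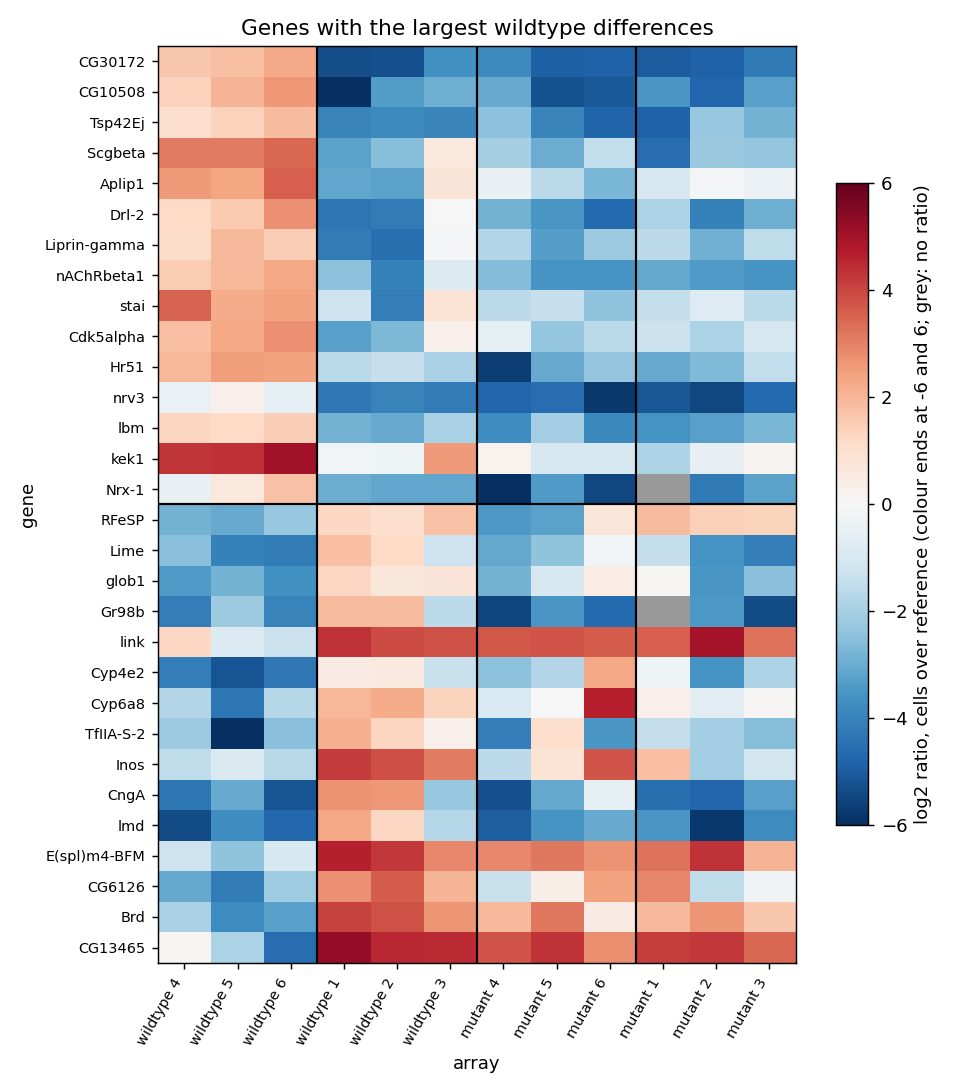
Log2 ratio (colour, blue low and red high, grey without a ratio) of the 30 genes with the largest wildtype differences (rows; above the line higher in wildtype samples 4-6, below it lower) on 12 arrays (columns, in sets of 3). Wildtype sample 3 is lighter than samples 1 and 2 for several genes in the upper block, and most mutant columns resemble wildtype samples 1-3 there.

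Some markers of other cells differed between the wildtype sets, and their part in the differences was not tested. Their lists are short, and each count stands beside the share of all rows called. The myoblast gene lmd (lame duck) had log2 ratios of -5.38, -3.74 and -4.69 in wildtype samples 4-6 and of 2.31, 1.26 and -1.72 in wildtype samples 1-3 (difference -5.22, adjusted p = 0.0091). Mutants had between -3.0 and -5.77 for lmd, so wildtype samples 1 and 2 alone were above the reference. sns, a cell adhesion gene of fusing myoblasts, had -2.50, -2.92 and -3.61 in wildtype samples 4-6 and 1.15, -1.42 and -1.94 in wildtype samples 1-3 (adjusted p = 0.092). twi, the mesodermal determinant, had 0.49, 1.11 and 0.70 in wildtype samples 4-6 and 3.27, 2.42 and 1.19 in wildtype samples 1-3 (adjusted p = 0.055). The mutant difference of twi was -1.02 (adjusted p = 0.36).

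The list of mesoderm and muscle had 0 of 7 tested members higher and 1 lower (all rows: 6.12% and 11.3%). Its median difference was 0.34, with 3 members below 0 (lmd, sns and twi) and 4 above. Those above included the muscle structural genes up, Mlc2 and Tm2, with differences of 1.56, 1.59 and 0.53 that did not pass. The sign of the median turned to -1.25 with single-channel values held at 8 and to -1.03 with 1 probe per gene. Its median ratio was -2.92 to -2.50 in wildtype samples 4-6 and -1.94 to -0.56 in wildtype samples 1-3. Among the members of the largest falls, CngA, Gr98b and Lime shared the pattern of lmd, with ratios of at least 1.2 in wildtype samples 1 and 2 and of -2.29, -1.59 and -1.26 in sample 3.

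Glial genes had 2 of 7 tested members higher and 0 lower (all rows: 6.12% and 11.3%), with a median of 0.36. gcm2, a switch gene of glia and blood cells, had log2 ratios of 2.76, 3.01 and 3.94 in wildtype samples 4-6 and of 0.74, 1.78 and 1.66 in wildtype samples 1-3 (difference 1.84, adjusted p = 0.027), and nrv2, the sodium pump subunit of glia, rose by 0.95 (adjusted p = 0.034). Their calls were lost under 5 and 6 of 14 alternatives. repo, the general marker of lateral glia, had 0.32, 0.16 and 0.26 in wildtype samples 4-6 and 0.34, -0.65 and -0.08 in wildtype samples 1-3, and did not pass (difference 0.37). Gs2 went the other way, with -1.58, -2.43 and -3.63 in wildtype samples 4-6 and -0.33, -1.23 and 0.07 in wildtype samples 1-3. Those sets did not overlap, and Gs2 did not pass (difference -2.05, adjusted p = 0.21). In the glial list 5 tested members lay above 0 and 2 below. The list's median ratio was 0.08 to 0.72 in wildtype samples 4-6 and -0.67 to 0.72 in wildtype samples 1-3, so the sets overlapped.

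Blood cell and fat body genes had 2 of 12 tested members higher and 0 lower (all rows: 6.12% and 11.3%), with a median of 0.12. These were the collagen gene vkg, with log2 ratios of -1.30, -0.91 and 0.39 in wildtype samples 4-6 and of -4.46, -4.86 and -2.50 in wildtype samples 1-3 (difference 3.33, adjusted p = 0.017), and SPARC (difference 1.04, adjusted p = 0.038). Col4a1, the collagen that pairs with it, had a difference of 0.42, and srp, the determinant of blood cells, -0.07. The list's median ratio was -0.77 to 0.39 in wildtype samples 4-6 and -0.65 to 0.20 in wildtype samples 1-3.

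Of the epidermal and tracheal genes 2 of 6 tested rose and 0 fell (all rows: 6.12% and 11.3%). Dll rose by 1.89 and peb by 1.60, while the other 4 lay below 0, down to -1.35, and the list median was -0.69. The list's median ratio was -2.40 to -1.93 in wildtype samples 4-6 and -1.57 to -1.48 in wildtype samples 1-3. Of the gut and yolk genes 2 of 6 fell and 0 rose (all rows: 11.3% and 6.12%). These were fkh, by 1.78, and GATAd, by 3.88, and GATAd had -3.04 in mutants. In this list 3 members lay above 0, up to 2.28, and 3 below, with a median of 0.0. The salivary gland and germline list had 0 of 3 past the threshold (all rows: 6.12% higher, 11.3% lower) and a median of -1.54. The calls of fkh, GATAd, peb and SPARC were each lost under 6 or more alternatives, and that of Dll under 2.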

How the data were processed

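Per the labels' protocols, RNA of the cells and of the reference was reverse transcribed, tailed, PCR-amplified and random-primed with dye, and each pair was hybridised to a spotted array. The authors deposited log2 ratios for 14569 probes per array. How spots were scanned, corrected and normalized is not given here. Base 2 was read from the values: on 8 of 10 arrays that could be examined, values without signal in 1 channel lay on even steps of a power of 2, within 0.1 of a step, and on 0 arrays for e or 10. Each column's median is 0 as deposited, and 22.1% to 38.6% of its probes stand at exactly 0. Values of exactly 0 (read as no ratio) and those past 11 in either direction (read as signal in 1 channel only) were set to missing; the labels state neither reading. No spot intensities were used here, so signal over background is unknown.

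Of the probes, 12658 had 1 gene symbol, 96 several and 1815 none; 12012 were found by identifier in the RefSeq gene table. Probes were averaged per symbol. Rows with 2 or more values a side were fitted on all 12 arrays as 4 set means with lmFit and eBayes of limma 3.58.1 (R 4.3.3), with Benjamini-Hochberg adjustment over all rows and a threshold of 0.05. The code of the fit was run on simulated data with independent noise. That simulation held no dye effect and no array-wide shift, so it cannot speak to either. An exact permutation of 3 arrays against 3 cannot go below 0.1 and was not used. The members and the 22 gene lists were chosen with earlier results of these data known, so lists carry no test and are given by counts and medians.

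The genes named are pros, 5 markers, the 15 largest differences a direction among called symbols with all 6 wildtype values (CG numbers if among the 5 largest), each list's members of smallest p (at most 4), and up to 10 a direction for the difference of differences. Other list members named stand beside a count or were chosen after their values were seen. The replicate numbers 1 to 6, shared by wildtype and mutant, were not used to pair the samples in the main fit. Deviations from set means of same-numbered samples correlated at 0.21, 0.27 and 0.2 for numbers 1, 2 and 3. For numbers 4, 5 and 6 they correlated at 0.03, -0.01 and 0.09. Whether the numbers pair samples is thus open, and the difference of differences kept none of its calls with the number as a block.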

Additional observations from a re-analysis of the deposited data

Results flagged for a closer look

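For 20 named genes the difference between samples 4-6 and samples 1-3 was not the same in wildtype as in mutants by limma's test of the difference of differences at an adjusted p under 0.05. Values here are the wildtype difference minus the mutant difference on the log2 scale. Two-sided adjusted p-values ran from 0.011 for CG30172 to 0.048 for Hr39.

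On the lower side stood 9 genes. The Notch and Bearded genes were Brd (-6.31), E(spl)m4-BFM (-5.19) and E(spl)mdelta-HLH (-3.20). The neuroblast factor ase had -2.19 and the securin gene pim had -2.28. The nuclear receptor gene Hr39 had -2.34, and CG10581, CG17267 and CG4455 had -4.13, -2.33 and -2.04. Hr39, averaged over 3 probes, had a difference of -1.18 in wildtype and of 1.16 in mutants. Its difference of differences ran from -4.29 to -0.84 over the alternatives, and 14 of 19 lost the call.

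Of the 22 symbols called on the higher side, 11 are given here, being those that the rule for naming genes kept. The sodium pump subunit nrv3 had 3.89 and the endocytic adaptor lap 2.97. The tetraspanin genes Tsp42Ej and lbm had 5.80 and 3.94. The genes known by number were CG10508 (6.69), CG30172 (6.45), CG42361 (4.48), CG7737 (4.39), CG31451 (3.88), CG12817 (3.71) and CG9368 (3.45).

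In each of the 20 genes the wildtype sets did not overlap and the mutant difference did not pass the threshold. Neither adds support, since the genes were chosen by their difference of differences. In mutants only 0.0119% of all rows passed as higher and 0.381% as lower. Without wildtype sample 6, and with the replicate number as a block, none of these 20 calls remained. Without wildtype sample 1, 2 or 5, 17, 15 and 15 of the 20 calls were lost, and without mutant sample 1, 2, 3, 5 or 6, 16, 15, 17, 15 and 14. Without mutant sample 4, 3 were lost, and without wildtype sample 3 or 4, none.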

How the results depend on the processing

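Wildtype calls numbered 1378. They were 1248 with centred arrays, 1404 after quantile normalization, 869 with zeros and single-channel values kept, and 485 from the wildtype arrays alone; leaving out a wildtype sample gave 510 (without sample 1) to 1467 (without sample 3). The mutant count of 33 was 0 with centred arrays, after quantile normalization and from the mutant arrays alone by limma (1352, 1456 and 1421 rows at an unadjusted p under 0.05), 78 with zeros kept, 116 with single-channel values held at 8, and 0 to 7 without a mutant sample. The count of 32 for the difference of differences was 93 after quantile normalization, 74 with zeros kept, 17 with single-channel values held at 8, and 0 (without wildtype sample 6) to 372 (without wildtype sample 3). It was 6, 8 and 9 without wildtype sample 1, 2 or 5, 5 to 9 without mutant sample 1, 2, 3, 5 or 6, 202 without wildtype sample 4 and 56 without mutant sample 4. A fit with the replicate block gave 0 calls, with 1387 rows at an unadjusted p under 0.05. Deviations of same-numbered samples correlated between 0.2 and 0.27 for numbers 1 to 3, and between -0.01 and 0.09 for numbers 4 to 6. The median of the progenitor lists, -1.35, was -1.05 with centred arrays and -0.91 after quantile normalization. The median of the salivary gland and germline list (-1.54) was 0.84 with 3 of 3 values a side and 1.03 without wildtype sample 2, where 1 member was tested, and -1.89 without sample 6. Of 87 named genes called between the wildtype sets, 44 kept the call in every alternative that tested them and 43 lost it in at least 1. The sign reversed in 0 of 1200 pairs of gene and setting. This adds no support, since the genes were called in these arrays and the settings share most of them. The losses were most frequent from the wildtype arrays alone (32 genes) and without wildtype sample 1 (32 genes). Depth and signal over background are unknown, and a setting that leaves out a sample rests on the spread of the other arrays. The cause of these changes was not tested.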

Other observations

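Of the respiratory chain genes 7 of 54 tested rose in wildtype samples 4-6 and 1 fell, where 6.12% of all rows rose and 11.3% fell, with a median difference of 0.35 (0.59 relative to all rows), beside a median of 0.26 in mutants. The complex III subunit UQCR-6.4 had a mean log2 ratio of -0.98 in wildtype samples 4-6 and -2.34 in wildtype samples 1-3 (difference 1.37, adjusted p = 0.032), and a mutant difference of 1.03. ND-B16.6, of complex I, had ratios of 0.94, 0.40 and 0.53 in wildtype samples 4-6 and of -0.61, -0.38 and -1.01 in wildtype samples 1-3. The member that fell was ND-B14.5AL (-1.67, adjusted p = 0.0087). With centred arrays 17 respiratory genes rose, and without wildtype sample 1 none did (0).

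Of the ribosomal protein genes 3 of 35 tested rose and 1 fell, the share that rose being near that of all rows (6.12%). Of all rows 11.3% fell. The list's median was 0.11 in wildtype and 0.20 in mutants. RpLP2 had log2 ratios of 1.24, 1.11 and 1.24 in wildtype samples 4-6 and of -0.06, -0.16 and -0.06 in wildtype samples 1-3, with a difference of 1.29 (adjusted p = 0.015), and the mutant difference was 1.30 (adjusted p = 0.089). RpS20 rose by 1.39 and had 0.84 in mutants. For these genes the sets of both genotypes differed the same way. Of the heat shock and apoptosis genes 0 of 5 tested passed in each list, with medians of 0.54 and -0.19.

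Values beyond 11 on the cell side, read here as spots with signal in the cell channel only, were counted apart and entered no comparison. They numbered 101, 953 and 592 in wildtype samples 4-6 and 378, 188 and 593 in wildtype samples 1-3. In mutants they numbered 546, 1 and 18 in samples 4-6 and 1261, 462 and 1241 in samples 1-3.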
